A study of Rattus norvegicus with 10 samples.

Results

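The tubulin isotype genes are the genes for the alternative alpha- and beta-tubulins from which a cell builds its microtubules. Here they were followed, with and without induced SOX10, in the enteric glial line JUG2, which is of rat origin. The members were 10 genes given by symbol: the beta-tubulins Tubb2a, Tubb2b, Tubb3, Tubb4a, Tubb4b, Tubb5 and Tubb6 (7 genes) and the alpha-tubulins Tuba1a, Tuba4a and Tuba8 (3 genes). Each was found through the symbol of the array's platform annotation among 23188 transcript clusters, a transcript cluster being the set of probes that reports 1 gene, and each had 1 cluster. The choice of members used no measured value, although it was made with earlier results of these data known.

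RNA was hybridised to Clariom S rat arrays in 4 groups. The SOX10 line carried a lentiviral doxycycline-inducible Sox10 (TetO-FUW-Sox10) with the transactivator construct EF1a TET3G and was selected with puromycin. The control line carried an inducible green fluorescent protein instead (pLV TREG EmGFP). SOX10 +dox and GFP +dox cells received doxycycline at 1 µg/ml for 48 h, whereas SOX10 -dox and GFP -dox cells received none. There were 4 arrays each for SOX10 -dox and SOX10 +dox and 1 array each for GFP -dox and GFP +dox. Every group is therefore the same cultured line with an integrated construct, and the GFP groups have no replicate.

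Signals are given on the deposited log2 scale, where a difference of 1 is a 2-fold change. Sox10 itself, the induced gene, ran from 6.11 to 6.43 in SOX10 -dox replicates 2 to 4 and from 12.62 to 13.02 in the matching SOX10 +dox arrays. In replicate 1 it ran against both labels: the array labelled SOX10 -dox read 12.90 and the array labelled SOX10 +dox read 6.74. Replicate 1 was therefore kept apart throughout, and comparisons used replicates 2 to 4. The labelled cell type was checked against 12 enteric glia markers. In SOX10 -dox replicates 2 to 4, 11 of the 12 lay within the range of the 23 background probe sets, 2.48 to 8.29, among them Sox10, S100b (5.21 to 5.78) and Gfap (5.45 to 5.81). The exception was Entpd2, an ectonucleotidase, at 9.36 to 10.43. Nes, the nestin gene, lay within the range at 6.71 to 6.91, although the study describes JUG2 cells as Nestin-positive. The upper limit of the range came from the array labelled SOX10 +dox replicate 1. Array medians lay between 6.69 and 6.86, inside the range, so a signal within it need not mean an absent transcript. How precisely a change is known here depends on how many arrays were run.

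Microtubules are hollow polymers of alpha- and beta-tubulin dimers. Mammals encode several isotypes of each, which differ mainly in their C-terminal tails, the surface that motors, microtubule-associated proteins and modifying enzymes read. In the nervous system, class II, class III and class IVa beta-tubulins are the isotypes linked with neurons and with myelinating oligodendrocytes, while class I, IVb and V are found in most tissues.

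Tubb2a and Tubb2b are near neighbours on rat chromosome 17, and Tubb3, which had the next largest difference after Tubb2a, lies on chromosome 19. Because SOX10 is a transcription factor, the 250 bases upstream of their annotated starts are shown (RefSeq, GRCr8). All 10 members had such a sequence. Capitals mark exact matches to any of 4 motifs. The SOX core was searched as ACAAAG, or in a variant form as ACAATG, on both strands, so that in a printed window the same motif may read CTTTGT and its variant may read CATTGT. The CCAAT box was searched on both strands, as was the GC box, written GGGCGG in the forward direction, whereas the TATA box was searched as TATAAA on the gene's own strand only. The windows are chr17:31001936-31002185, plus strand, for Tubb2a, chr17:30952836-30953085, plus strand, for Tubb2b, and chr19:68365437-68365686, plus strand, for Tubb3.
Tubb2a: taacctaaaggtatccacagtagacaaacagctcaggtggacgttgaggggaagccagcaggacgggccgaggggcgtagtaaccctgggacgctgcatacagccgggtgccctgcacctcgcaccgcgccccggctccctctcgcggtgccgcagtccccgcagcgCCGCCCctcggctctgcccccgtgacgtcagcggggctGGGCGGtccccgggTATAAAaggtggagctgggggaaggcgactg
Tubb2b: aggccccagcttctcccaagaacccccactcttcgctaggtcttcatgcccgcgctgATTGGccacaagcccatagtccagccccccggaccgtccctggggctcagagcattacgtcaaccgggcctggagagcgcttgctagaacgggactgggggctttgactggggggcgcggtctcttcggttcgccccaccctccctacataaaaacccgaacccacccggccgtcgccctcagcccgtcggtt
Tubb3: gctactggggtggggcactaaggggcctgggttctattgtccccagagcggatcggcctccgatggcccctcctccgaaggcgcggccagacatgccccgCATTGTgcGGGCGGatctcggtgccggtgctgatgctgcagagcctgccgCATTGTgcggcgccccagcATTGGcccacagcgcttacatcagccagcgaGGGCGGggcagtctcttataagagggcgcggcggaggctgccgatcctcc

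The Tubb2a window had TATAAA 31 bases before the start, GC boxes at 83 and 45 bases, and no SOX core. The Tubb2b window held only a CCAAT box, at 193 bases. The Tubb3 window held SOX cores at 150 and 100 bases, a CCAAT box at 81 and GC boxes at 142 and 50. Among all 10 members a SOX core was found in 5 windows (Tubb3, Tubb4b, Tubb5, Tuba1a and Tuba8), against 25.3% of all 33469 RefSeq promoter windows of this length. A CCAAT box was found in 6 windows (34% of all), a GC box in 7 (30.5%) and TATAAA in 2, Tubb2a and Tubb4b (8.06%). Some matches of different motifs can overlap, and a match is a run of letters, not a measured binding site.

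Among the isotypes Tubb2a, which encodes class IIa beta-tubulin and is abundant in brain, rose with SOX10 induction. Its signal was 9.63, 9.85 and 9.35 in SOX10 -dox replicates 2, 3 and 4 and 13.32, 13.13 and 11.55 in the corresponding SOX10 +dox arrays. The groups did not overlap, and SOX10 +dox replicate 4 was the lowest of the induced arrays by a wide margin. The group means were 9.61 ± 0.25 and 12.67 ± 0.97 (SD, n = 3 each).

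The limma difference was 3.06 ± 0.40 (SE), or 8.32-fold with a 95% confidence interval from 4.49 to 15.4, with a Benjamini-Hochberg adjusted p = 0.00148. By size it ranked 58 among the 525 clusters called higher, a call being an adjusted p under 0.05 and at least a 2-fold change. The differences within replicates were 3.70, 3.28 and 2.19. Tubb2a was the only 1 of the 10 members called higher, where 2.26% of all clusters were, and 0 members were called lower, where 1.24% were. At an unadjusted p under 0.05, 3 members passed, Tubb2a, Tubb3 and Tubb4a, all higher, against 14.8% of all clusters.

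In replicate 1, the array labelled SOX10 -dox read 13.42 for Tubb2a and the array labelled SOX10 +dox read 9.53. Tubb2a thus followed the Sox10 signal of each array and not its label. With all 8 SOX10 arrays as labelled, the difference was 1.32 ± 0.95, with an adjusted p = 0.973. Leaving out any 1 of the 6 compared arrays gave differences between 2.73 and 3.62, each called.

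**Figure D1:**
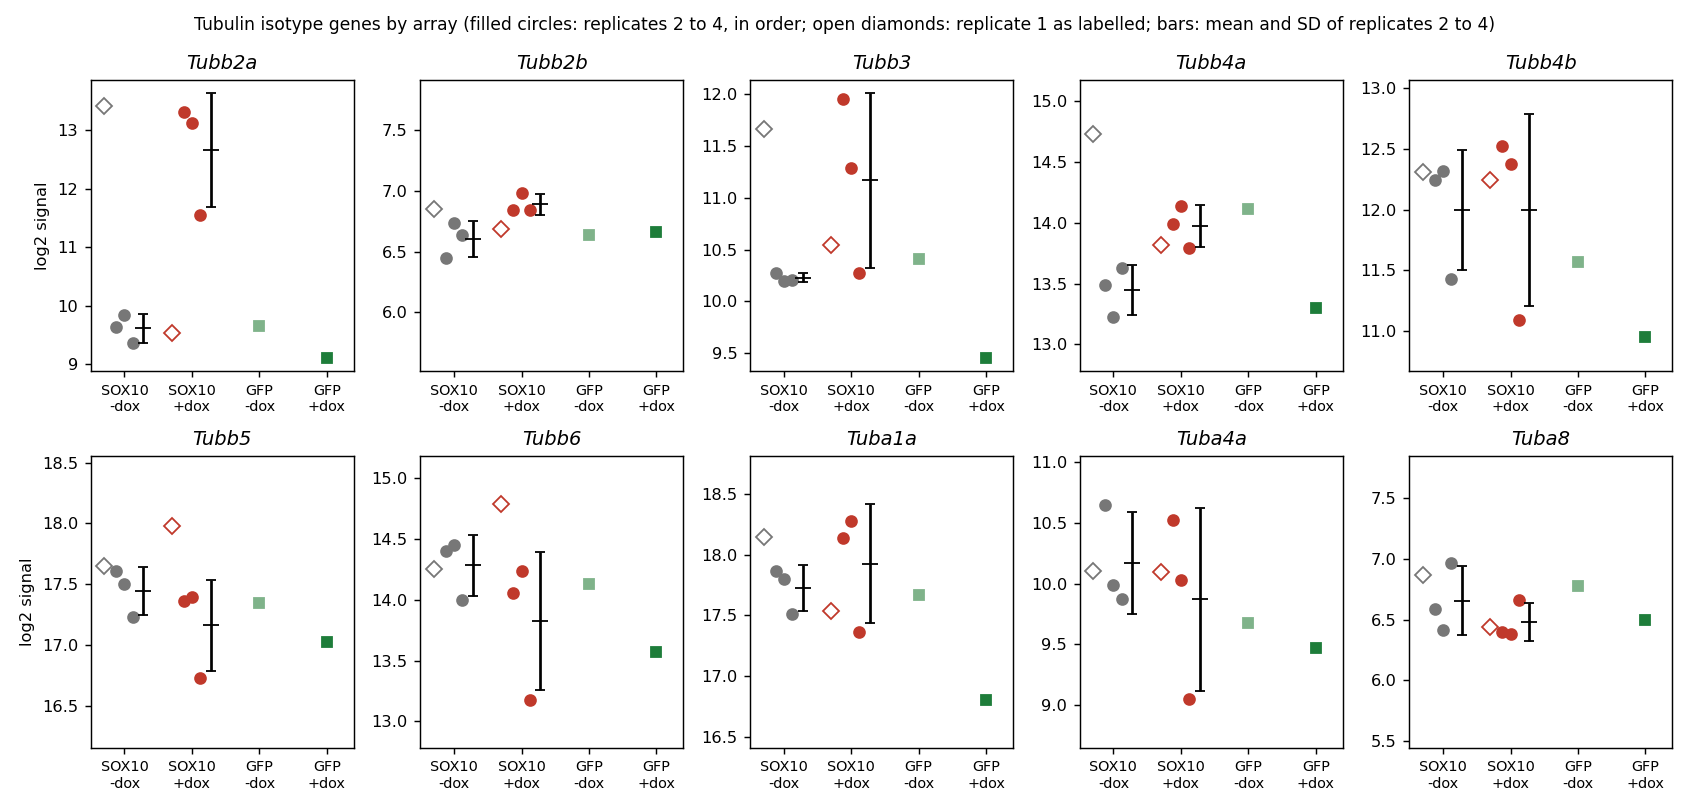
Log2 signal of each tubulin isotype gene (y axis) in the 4 groups (x axis); filled circles are SOX10 replicates 2 to 4 from left to right, with the mean and SD beside them, open diamonds are replicate 1 under its label, and squares are the single GFP arrays. For Tubb2a the SOX10 +dox arrays, at 11.55 to 13.32, lie above all SOX10 -dox replicates 2 to 4 and both GFP arrays, while the replicate 1 diamonds sit at the opposite levels.

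Tubb2b, the class IIb beta-tubulin known for its role in neuronal migration, stayed at a low signal. It read 6.44, 6.73 and 6.64 in SOX10 -dox and 6.84, 6.98 and 6.84 in SOX10 +dox. The groups did not overlap, but the difference was 0.28 ± 0.21 with an adjusted p = 0.609, and every value lay inside the range of the background probe sets. The 95% interval ran from -0.18 to 0.74, which excludes a 2-fold rise on this scale, although a signal this low can understate a change.

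Tubb3, class III beta-tubulin and a customary neuronal marker, varied most between the induced arrays after Tubb2a. It read 10.28, 10.20 and 10.21 in SOX10 -dox and 11.94, 11.28 and 10.28 in SOX10 +dox. SOX10 +dox replicates 2 and 3 stood above the uninduced arrays, and replicate 4 lay among them. The difference was 0.94 ± 0.36 with an adjusted p = 0.231, which is not a call. Without SOX10 +dox replicate 4 it was 1.38 with an adjusted p = 0.0133, and with array weights 1.17 with an adjusted p = 0.0407, so that 1 array decided the call. Without SOX10 +dox replicate 2 it was 0.55 with an adjusted p = 0.535, and the replicate block gave an adjusted p = 0.101. Replicate 1 again ran the other way, with 11.66 in the array labelled SOX10 -dox and 10.55 in that labelled SOX10 +dox.

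Tubb4a, class IVa beta-tubulin, is prominent in brain and in oligodendrocytes. It read 13.49, 13.23 and 13.63 in SOX10 -dox and 13.99, 14.14 and 13.79 in SOX10 +dox. The groups did not overlap, and the difference was 0.53 ± 0.22 with an adjusted p = 0.293. The GFP -dox array, at 14.11, was as high as the induced SOX10 arrays, and GFP +dox read 13.30. Complete separation with SOX10 +dox above was seen for 3 members, Tubb2a, Tubb2b and Tubb4a, against 9.5% of all clusters, and with SOX10 +dox below for 0 members, against 10.5%.

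The more widely expressed beta-tubulins did not pass the test. Tubb5, the class I isotype of most cells, read 17.60, 17.50 and 17.23 without and 17.36, 17.40 and 16.73 with doxycycline, a difference of -0.28 ± 0.25. Tubb6, class V, read 14.40, 14.45 and 14.00 against 14.06, 14.24 and 13.17, a difference of -0.46 ± 0.30 and an adjusted p = 0.542. Tubb4b, the class IVb isotype also used in cilia, read 12.24, 12.32 and 11.43 against 12.52, 12.37 and 11.09. Its difference of 0.00 ± 0.38 had no stable sign under other settings.

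Among the alpha-tubulins, 0 of 3 passed. Tuba1a, the principal alpha-tubulin of the developing brain, read 17.86, 17.80 and 17.51 in SOX10 -dox and 18.13, 18.27 and 17.36 in SOX10 +dox, a difference of 0.20 ± 0.27. Tuba4a, whose gene does not encode the terminal tyrosine of other alpha-tubulins, read 10.65, 9.99 and 9.88 against 10.53, 10.03 and 9.05, a difference of -0.30 ± 0.36. Without SOX10 +dox replicate 4 that difference was 0.11. Tuba8, an isotype of restricted tissue distribution, stayed between 6.38 and 6.97 in these arrays, within the background range, with a difference of -0.17 ± 0.23. The 95% intervals of Tuba1a (-0.40 to 0.80) and Tuba8 (-0.68 to 0.33) exclude a 2-fold change on this scale, while that of Tuba4a (-1.10 to 0.49) does not exclude a 2-fold lower level. A signal as low as that of Tuba8 can understate a change. The tubulins share long stretches of sequence with each other and with pseudogenes, so probes of 1 gene may also report a relative, and the RefSeq neighbour Tubb2al1, between Tubb2b and Tubb2a, was not analysed here.

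**Figure D2:**
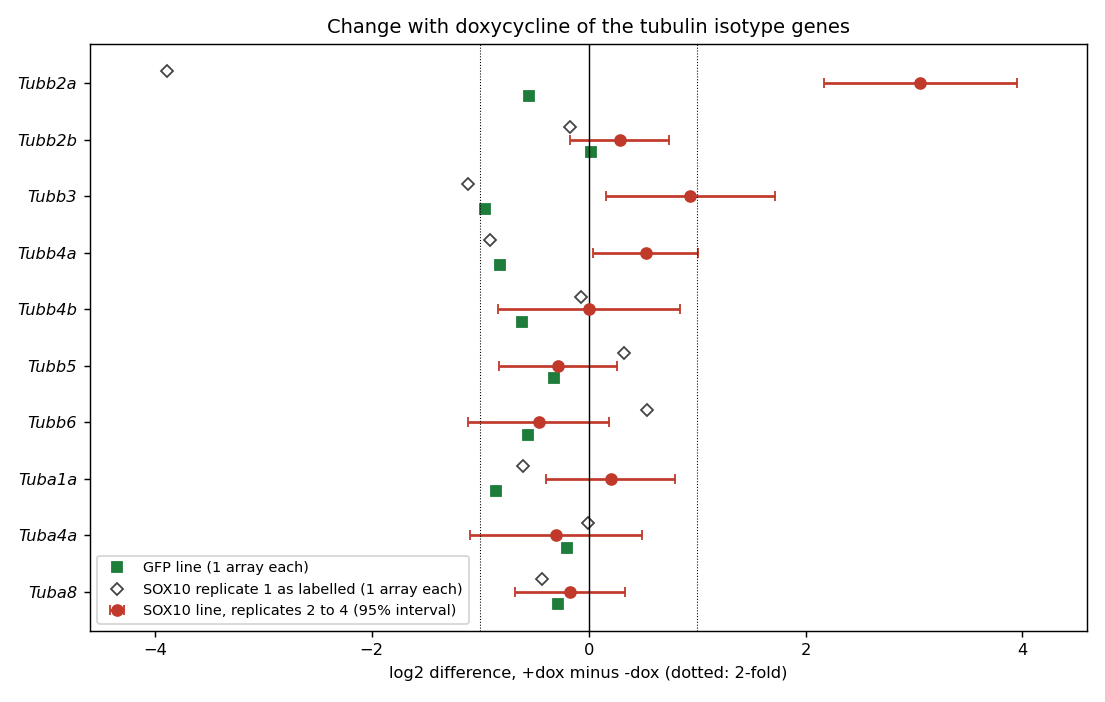
Log2 difference, +dox minus -dox (x axis), of each tubulin isotype gene (y axis) in the SOX10 line (circles, replicates 2 to 4, with 95% confidence intervals), the GFP line (squares) and SOX10 replicate 1 as labelled (open diamonds). The Tubb2a interval, 2.17 to 3.95, lies beyond 2-fold, and its replicate 1 difference of -3.89 points the other way.

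The members had a common low array. SOX10 +dox replicate 4 was the lowest of the 3 induced arrays for 9 of the 10 members, Tuba8 being the exception. That array was the lowest for 35.8% of all clusters and for 56.1% of the brightest 10% of clusters. SOX10 -dox replicate 4 was the lowest uninduced array for 6 of 10 members, against 36.4% of all clusters and 53.1% of the brightest. Sox10 itself was not low there, at 13.02, the highest of the 3 induced arrays. The estimated array weights were 0.488 for SOX10 +dox replicate 4 and 0.59 for SOX10 -dox replicate 4, against 1.17 to 1.51 for the other SOX10 arrays compared. The part of array quality in the low tubulin values was not tested.

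In the GFP line, where doxycycline induces green fluorescent protein instead of SOX10, Tubb2a read 9.65 without and 9.10 with doxycycline. No group received doxycycline without an inducible gene, so the effect of doxycycline alone was not measured. The GFP +dox array was lower for 9 of 10 members, Tubb2b being the exception with 6.64 and 6.66, and lower for 51.6% of all clusters. The largest differences were -0.95 for Tubb3 (10.41 and 9.46), -0.86 for Tuba1a (17.66 and 16.81) and -0.82 for Tubb4a. The median difference over the members was -0.55, against -0.02 over all clusters.

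None of these GFP differences reached 2-fold, where 5.93% of clusters did, and each rests on 1 array per group. When the spread of the GFP arrays was taken to be that of the SOX10 arrays, 0 members were called, as were 0% of clusters. At an unadjusted p under 0.05, 0 members passed against 6.29% of clusters. The 4 members among the brightest 10% of clusters, Tubb4a, Tubb5, Tubb6 and Tuba1a, had a median GFP difference of -0.69, and all 2319 bright clusters had -0.22. The GFP +dox array also had the dimmest bright end, with only 10% of its clusters above 11.86, against 12.02 to 12.24 in the others. After quantile normalization the median over the members was -0.41, with 10 of 10 lower, and the part of signal scale in this shift was not otherwise tested.

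The difference between the SOX10 and GFP effects was 3.61 ± 0.81 for Tubb2a, with an adjusted p = 0.123, so 0 members were called in that test, where 0.384% of clusters were. With the replicate as a block, which assumes that the replicate numbers pair the SOX10 arrays, the same difference had an adjusted p = 0.029 and was called. At an unadjusted p under 0.05, 3 members passed, again Tubb2a, Tubb3 (1.89 ± 0.71) and Tubb4a (1.34 ± 0.44), against 9.04% of clusters. All of these share the single pair of GFP arrays.

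Without doxycycline the SOX10 and GFP lines were compared as a baseline. Tubb2a differed by -0.05, and member differences ran from -0.67 for Tubb4a to 0.49 for Tuba4a. In this comparison 0 members and 0% of clusters were called. At an unadjusted p under 0.05, 0 members passed, against 3.32% of clusters.

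Profiles most like that of Tubb2a were sought among gene-named clusters over all 10 arrays, without use of the labels, by the root-mean-square distance between log2 values centred on each gene's mean. The nearest were Tyro3, a receptor tyrosine kinase, at 0.28, Dtx4 at 0.28, Snapc2 at 0.30, Ankh, which acts in pyrophosphate export, at 0.32 and Glrx, a glutaredoxin, at 0.34. Their differences with SOX10 were 3.25, 3.06, 3.10, 3.06 and 3.37. Each was high in the array labelled SOX10 -dox replicate 1 and low in that labelled SOX10 +dox replicate 1. Because they were chosen for likeness to Tubb2a over all 10 arrays, these values follow from the choice and are no separate evidence. For Tubb3 the nearest were Ube2g2 at 0.19, Lmo7 at 0.21, Tbc1d22b at 0.25, Shroom2 at 0.26 and Crlf3 at 0.26, with 0 of these 5 called (adjusted p from 0.119 to 0.249). That too goes with the choice, as Tubb3 itself was not called. Tubb2b varied so little that its nearest profiles, Stard3, Ctnnb1, Snap91, Liph and Rnf111 at 0.09 to 0.11, describe nearly flat genes.

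**Figure D3:**
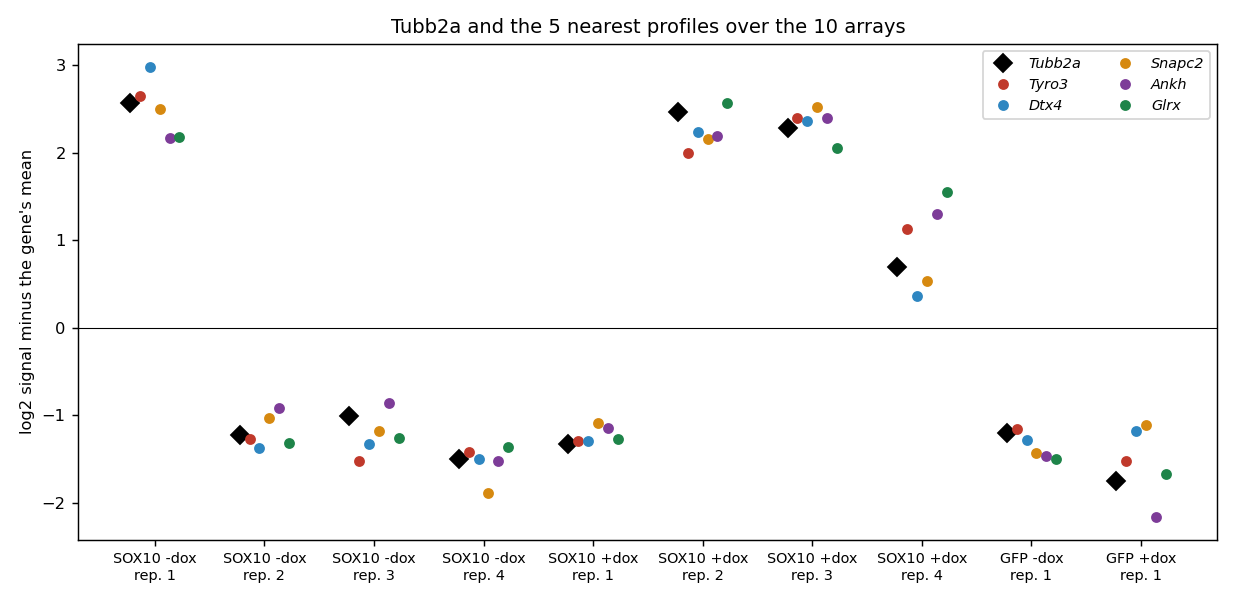
Log2 signal minus each gene's mean over 10 arrays (y axis) for Tubb2a (black diamonds) and the 5 clusters nearest to it (coloured circles), by array (x axis). All 6 genes are high in SOX10 +dox replicates 2 to 4 and in the array labelled SOX10 -dox replicate 1, with SOX10 +dox replicate 4 lowest of these 4. The likeness follows from the choice of the 5 by their profiles.

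Other genes of microtubule biology were taken from 8 lists, in which 146 of 191 listed genes had a cluster with their platform symbol. With SOX10 4 rose (2.74%, against 2.26% of all clusters), 0 were called lower (1.24% of all clusters) and 142 were neither. The share that rose was close to that of all clusters, and the median difference was -0.10 against -0.02 over all clusters. At an unadjusted p under 0.05, 13 were higher and 20 lower, where 7.23% of all clusters were higher and 7.55% lower. The 4 that rose belong to 3 of the lists.

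Among tubulin modifying enzymes 1 of 13 rose, Atat1, the acetyltransferase that marks alpha-tubulin inside the microtubule lumen. It read 9.55, 9.42 and 9.12 in SOX10 -dox and 10.39, 10.60 and 10.37 in SOX10 +dox, a rise of 1.09 ± 0.22 (adjusted p = 0.0181). Without SOX10 +dox replicate 2 its adjusted p was 0.0642, and it lost its call also without SOX10 -dox replicate 3, SOX10 +dox replicate 3 or SOX10 -dox replicate 4, with adjusted p of 0.0656, 0.0894 and 0.0595.

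Among structural microtubule-associated proteins 2 of 23 rose. Mtus1, which encodes microtubule-associated proteins also described as tumour suppressor candidates, read 9.55, 9.61 and 9.70 without and 11.46, 11.66 and 11.07 with induction, a rise of 1.78 ± 0.23 (adjusted p = 0.00127). Map6d1, a relative of the microtubule stabiliser Map6, read 3.42, 3.46 and 3.69 against 4.48, 4.36 and 4.87, a rise of 1.04 ± 0.23 (adjusted p = 0.0266). Its signal lay within the background range, and its call was lost with array weights (1.00, under 2-fold) and in 5 of the 6 fits that left out 1 array, with adjusted p from 0.059 to 0.111 in those. Doublecortin, Dcx, read 6.45, 6.98 and 6.92 against 7.79, 7.70 and 7.82 and passed the adjusted p (0.0349) but not the 2-fold limit, with 0.99, and it too lay within the background range. After quantile normalization Dcx was called higher.

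Among plus-end and nucleation genes 1 of 20 rose, Tacc1, a coiled-coil protein of centrosomes and microtubule ends. It read 10.77, 10.77 and 11.22 in SOX10 -dox and 13.01, 12.84 and 13.34 in SOX10 +dox, a rise of 2.14 ± 0.24 (adjusted p = 4.68e-04). SOX10 +dox replicate 4 was the highest of the 3 induced arrays for Tacc1.

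The other lists had 0 called genes. Among 7 other tubulin genes, differences ran from -0.53 for Tubd1 to 0.51 for Tuba3b. Tubal3 (0.30, adjusted p = 0.786) and Tuba3b were, with Tubd1, the genes of smallest adjusted p there, and all 3 lay within the background range. Among 20 tubulin folding and prefoldin genes, Pfdn5 (-0.62), Tbcel (0.55) and Tbca (-0.54) came nearest to the threshold, with adjusted p of 0.215, 0.242 and 0.288. Among 27 transport kinesin and dynein genes they were Dync1li2 (0.59), Kif3c (-0.54) and Kif13a (-0.46), with adjusted p of 0.198, 0.307 and 0.388.

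Among 13 microtubule destabilising and severing genes, Stmn1, the dimer-sequestering stathmin, read 11.54, 11.75 and 10.24 in SOX10 -dox and 10.32, 10.53 and 9.41 in SOX10 +dox. Its difference was -1.09 ± 0.41 (adjusted p = 0.222), and with the replicate as a block it was called lower at an adjusted p = 0.0119. Stmn1 was also called lower without SOX10 -dox replicate 4. The depolymerising kinesins Kif18a (-0.81, adjusted p = 0.187) and Kif18b (-0.70, adjusted p = 0.202) did not pass.

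The 23 mitotic spindle genes had a median difference of -0.51, with 7 lower and 0 higher at an unadjusted p under 0.05 (7.55% and 7.23% of all clusters). Nusap1, a spindle-bundling protein, read 11.67, 11.49 and 11.53 against 10.82, 10.62 and 10.28, and at -0.99 it passed the adjusted p (0.034) but not the 2-fold limit. Spag5 (-0.79, adjusted p = 0.139) and Aurkb (-0.89, adjusted p = 0.209) did not pass.

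**Figure D4:**
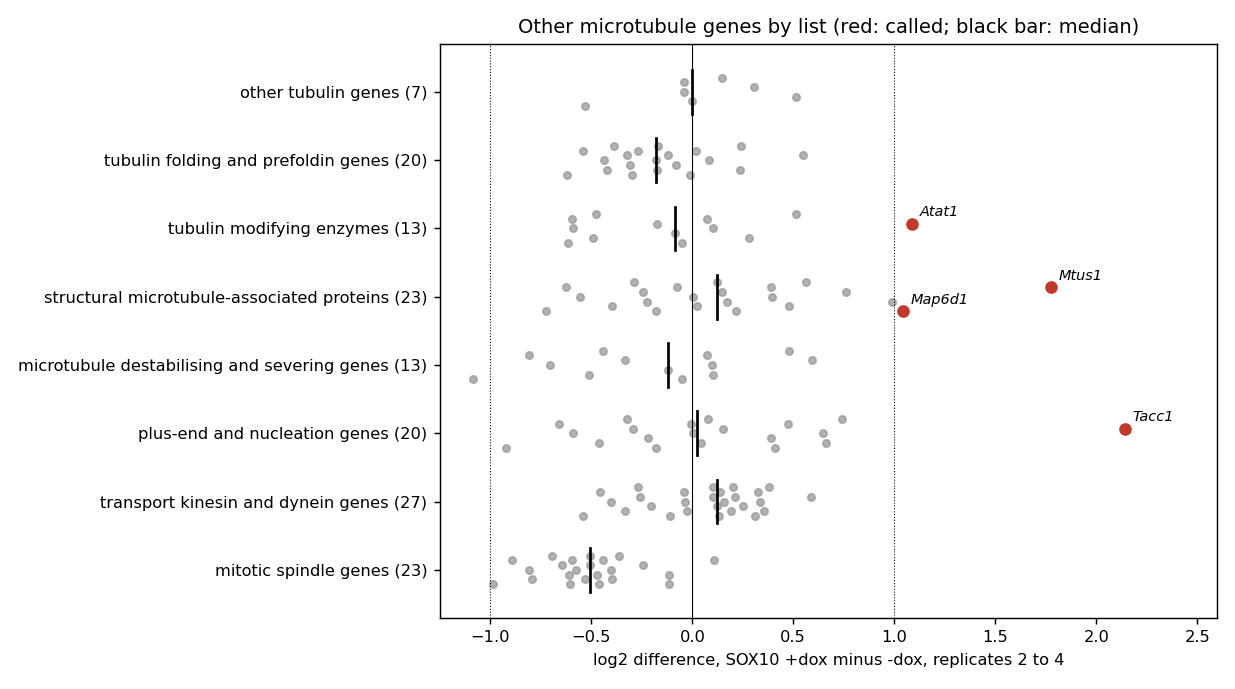
Log2 difference, SOX10 +dox minus -dox (x axis), of every measured gene in 8 lists of microtubule genes (y axis, with the number measured); each point is 1 gene, red points were called, and black bars are list medians. The 4 called genes are Atat1, Mtus1, Map6d1 and Tacc1, and the mitotic spindle list lies lowest, with a median of -0.51.

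A further 5 microtubule genes carried a name only in the study's table of changed genes, so they are no independent evidence and stand outside the counts above. The polyglutamylase Ttll5 rose by 1.59 ± 0.29 (adjusted p = 0.0109) and the kinesin Kif21a, which restrains microtubule growth, by 1.74 ± 0.23 (adjusted p = 0.00137). Vash2, a tubulin tyrosine carboxypeptidase, fell by 1.28 on the log2 scale (SE 0.25, adjusted p = 0.0144). Ttll5 lost its call without SOX10 +dox replicate 2 (adjusted p = 0.0573) or SOX10 +dox replicate 3 (adjusted p = 0.0608), and Vash2 without SOX10 -dox replicate 3 (adjusted p = 0.0693) or SOX10 +dox replicate 3 (adjusted p = 0.0634). Kif24 (0.86, adjusted p = 0.0685) and Kif4a (-0.81, adjusted p = 0.304) were not called, and Kif24, within the background range, was called without SOX10 +dox replicate 4 (1.01, adjusted p = 0.0382).

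Several of these isotypes are used as markers of neurons, so 18 measured neuron markers were read beside Tubb2a and Tubb3. In SOX10 +dox against -dox 0 of 18 were called, where 2.26% of all clusters were called higher and 1.24% lower. At such shares a list this short can hold 0 calls. The 18 markers had a median of 0.04. Their mean level per array ran from 5.98 to 6.24 in SOX10 -dox and from 6.09 to 6.27 in SOX10 +dox. Of these 18, 16 stayed within the background range in all 6 compared arrays, among them Elavl4 and Rbfox3. The other 2 lay above it in every one: Uchl1, a ubiquitin hydrolase, ran from 10.73 to 11.94 in SOX10 -dox and from 10.82 to 12.33 in SOX10 +dox, and Ncam1, an adhesion molecule that glia also carry, from 16.77 to 17.75 and from 15.65 to 17.29. Of 13 myelinating glia markers 5 rose (Mbp, Mobp, Cnp, Pmp2 and Egr2), and their list mean ran from 6.87 to 7.19 in SOX10 -dox and from 8.32 to 8.93 in SOX10 +dox. In the compared SOX10 -dox arrays, 10 of the 13 lay within the background range. In SOX10 +dox, Mbp, at 5.81 to 8.72, and Pmp2, at 7.09 to 8.55, left that range only in part. Of 12 enteric glia markers 5 rose, among them the induced Sox10, and Gfra1 fell, although S100b and Gfra1 stayed within the background range. Of 14 fibroblast and smooth muscle markers 0 were called, with a list mean from 10.70 to 11.02 in SOX10 -dox and from 10.27 to 10.67 in SOX10 +dox. Their median difference was -0.44, with 4 lower and 0 higher at an unadjusted p under 0.05 (7.55% and 7.23% of all clusters). Between the GFP arrays these markers also moved down, with a median of -0.33 (-0.02 over all clusters). Enteric glia markers had medians of 0.47 in the SOX10 line and 0.47 between the GFP arrays. Myelinating glia markers had 0.89 and 0.32, and neuron markers 0.04 and 0.17. The GFP medians are unreplicated, and whether list medians differ between the lines was not tested. In such bulk RNA, fewer cells of a type and less RNA per cell cannot be told apart, and the part of these markers in the Tubb2a change was not tested.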

How the data were processed

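RNA from each culture was measured on Clariom S rat arrays (100 ng total RNA, GeneChip WT Plus). The authors processed the arrays in Transcriptome Analysis Console (version 4.0.3.14) and deposited log2 signals per probe set; the summarization, background correction and normalization are not given in the sources used here. Of 24834 probe sets, 1646 controls were left out. Genes were named from the platform annotation, which gave 1 symbol to 15049 clusters, or, where it gave none, from the study's table of changed genes.

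The signals were fitted as deposited in limma (version 3.58.1, R 4.3.3), with a mean for each of 4 groups over SOX10 replicates 2 to 4 and both GFP arrays and Benjamini-Hochberg adjustment over 23188 clusters. The methods require an adjusted p under 0.01, and 0.05 was used with at least 2-fold. The methods speak of independent experiments. Same-numbered SOX10 arrays deviated together, with correlations of 0.194, 0.15 and 0.411 for replicates 2, 3 and 4. The highest correlations with a differently numbered array were 0.171, 0.13 and -0.264. Only replicate 4 thus stood clearly apart, and the pairing by number is an assumption. The fit was tested on simulated data. Alternatives were all 8 SOX10 arrays, the stricter threshold, an intensity-dependent prior, array weights, quantile normalization, removal of the dimmest 20%, the replicate block and leaving out each array. Named genes were all members, called list genes or otherwise the 3 of smallest adjusted p, and the 5 nearest profiles of Tubb2a, Tubb2b and Tubb3. Genes named only in the study's table were added. Members and lists were chosen with earlier results of these data known.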

Additional observations from a re-analysis of the deposited data

Results flagged for a closer look

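Over 35 named genes, 70 groups of 4 SOX10 arrays as labelled were searched for a single array far from the other 3. Such an array was found in 12 groups, and in 10 of these it was replicate 1, whose Sox10 signal ran against its labels. The usual chance rate of about 1 in 20 is no fair reference here. Many of these genes were named for a call or a small adjusted p in the compared arrays, which left replicate 1 out. A gene chosen that way tends to set replicate 1 apart, so these 10 are no separate evidence. In the array labelled SOX10 -dox replicate 1, Tubb2a read 13.42 (the other 3 arrays 9.35 to 9.85), Tubb3 11.66 (10.20 to 10.28), Tbcel 10.28 (8.81 to 8.99), Mtus1 11.79 (9.55 to 9.70), Tacc1 13.54 (10.77 to 11.22), Ttll5 14.22 (11.52 to 11.94) and Kif21a 12.14 (9.30 to 9.73). In the array labelled SOX10 +dox replicate 1, Atat1 read 9.27 (10.37 to 10.60), Dcx 6.45 (7.70 to 7.82) and Kif18b 10.96 (9.07 to 9.32). The remaining pair were Tubb4b, at 11.43 in SOX10 -dox replicate 4 (12.24 to 12.32), and Tubal3, at 4.16 in SOX10 -dox replicate 3 (5.078 to 5.203).

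The response to doxycycline differed between the SOX10 and GFP lines for Mtus1, by 2.68 (limma, adjusted p = 0.035), and for Tacc1, by 2.996 (adjusted p = 0.0255). Both genes were lower in the GFP +dox array, by -0.91 and -0.85, and the GFP line had 1 array per group. Of all clusters, 0.384% were called in this test. Both genes were named for their calls in the same SOX10 arrays, so these differences are no separate evidence.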

How the results depend on the processing

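With all 8 SOX10 arrays as labelled, the counts called higher were 0 among the members and 0 among the 146 microtubule genes, and 0 of all clusters were called. Array weights gave 2 members called higher (Tubb2a and Tubb3) and 1 member called in the difference between SOX10 and GFP effects (Tubb2a). They also gave 1 microtubule gene called lower, Mapre2, which in the main fit had -0.92 and an adjusted p = 0.0669. The replicate block, which assumes pairing by number, gave 1 member in the difference of effects (Tubb2a) and 1 microtubule gene called lower (Stmn1). It changed no other call among the named genes. At an adjusted p under 0.01, 2 microtubule genes were called higher. Quantile normalization gave 5 called higher, with Dcx added. Leaving out 1 array gave 1 to 2 members called higher (2 without SOX10 +dox replicate 4), 0 to 1 member in the difference of effects (1 without SOX10 +dox replicate 4), 2 to 3 microtubule genes called higher and 0 to 2 called lower. Those called lower were Stmn1 and Mapre2 without SOX10 -dox replicate 4, and Mapre2 without SOX10 +dox replicate 4. Tubb4b changed sign, to -0.017 with all 8 arrays, to -0.0137 after quantile normalization and between -0.28 and 0.45 when 1 array was left out. Leaving out 1 array moved Tuba4a between -0.63 and 0.11 and Tubal3 between -0.0738 and 0.54. No cause was tested. Averaging several clusters per gene was not run, because each listed gene had 1 cluster. Of 454 differences of named genes under these alternatives, 414 kept their direction and their side of the threshold. Where replicate 1 was left out, from 308 to 654 of all clusters were called higher and from 113 to 375 lower. Tubb2b, Tuba8, Tubd1, Tuba3b, Tubal3, Map6d1, Dcx and Kif24 lay within the background range, which limits their differences.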
